A study of Apeltes quadracus with 85 samples.

Results

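Read levels and allele ratios were compared between the fourth dorsal spine (DS4) and the blank pterygiophore (Pter) of the same fry of the stickleback Apeltes quadracus. The comparison asks what separates a position of the dorsal midline that bears a spine from one whose bone bears none. Of the 11 fish in the series, 8 had a DS4 library, and their DS4 and Pter libraries make up the 16 libraries used here of 85 in all. These were 4 H/L fish, 3 H/LHR fish and 1 L/LHR fish, named for the pair of HOXDB haplotypes that each fish carries. H is the haplotype found with many spines, L the one found with few, and LHR is a recombinant of both. All 8 were fry of finfold stage 31, from laboratory clutches of Louisbourg parents, reared in 10% seawater at 16 °C to a length of 11 to 13 mm. Each library was made from polyadenylated RNA of 1 dissected tissue of 1 fish. The labels gave neither the family of a fish nor a sequencing batch, so genotype and family cannot be told apart.

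Pterygiophores are the bones of the dorsal midline that lie under the spines and fin rays of fishes. A spine grows out over some of them, and others stay blank. Hox genes encode transcription factors that give parts of a repeated series, such as vertebrae, their identity along the body axis in animals. HOXD9B and HOXD11B belong to the HOXDB cluster, a Hox cluster found in sticklebacks.

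The libraries gave reads of each allele at listed single-nucleotide sites. Levels are the reads at all sites within a fixed 10-kb bin, scaled to the reads at all sites of the library and given as reads per megaread (RPM). A read that spans several sites enters at each of them, so nearby sites of a bin are not independent. Depth was 22686275 to 40860002 such reads in 14 libraries. The Pter library of H/L replicate 3 had 16588138 and its DS4 library only 2687799. No gene annotation of this assembly was used here, so bins are named by position, and a bin can hold no gene, 1 gene or several. Markers of bone, skin, muscle, blood and nerve could therefore not be read, and the cell makeup of DS4 and Pter was not tested. In bulk tissue, fewer cells of a type and less RNA per cell cannot be told apart.

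DS4 and Pter differed in 246 of 15896 bins tested (1.55%). Of these, 197 bins were higher in DS4 (1.24% of those tested) and 49 were higher in Pter (0.308%). The test was edgeR's quasi-likelihood F-test with fish as a block and a false discovery rate (FDR) of 0.05. Among the called bins, the changes toward the spine were larger. Their median was 0.80 on the log2 scale, with a range of 0.33 to 4.56, and 67 bins changed by more than 1. The bins higher in Pter had a median log2 change of -0.47 and reached -1.95, and 4 of them changed by more than 1. The median level of the called bins was 5.87 RPM for those higher in DS4 and 14.4 RPM for those higher in Pter. The part of this difference in level in the sizes of the changes was not tested. Over all bins tested the median log2 change was -0.017. With no adjustment, 1280 bins were higher in DS4 and 1160 higher in Pter at p under 0.05. For directions and log2 changes per fish of bins, levels were scaled by TMM factors, edgeR's correction of library totals. RPM uses the totals alone, and some fish change direction in RPM. After TMM scaling, 143 of the 197 bins were higher in DS4 in all 8 fish and 51 in 7 fish. Of the 49 bins, 40 were higher in Pter in all 8 and 9 in 7. With library totals only, 74 of the 246 bins were called. Without the block 75 bins were called higher in DS4 and 2 higher in Pter, and DESeq2 called 419 and 247. The counts also moved when a fish was left out. They were 60 and 10 without H/LHR replicate 1, 85 and 17 without H/LHR replicate 2, and 77 and 12 without H/LHR replicate 3. They were 81 and 22 without H/L replicate 1, 37 and 4 without H/L replicate 2, 284 and 133 without H/L replicate 3, 315 and 45 without H/L replicate 4, and 134 and 14 without L/LHR replicate 1.

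**Figure D1:**
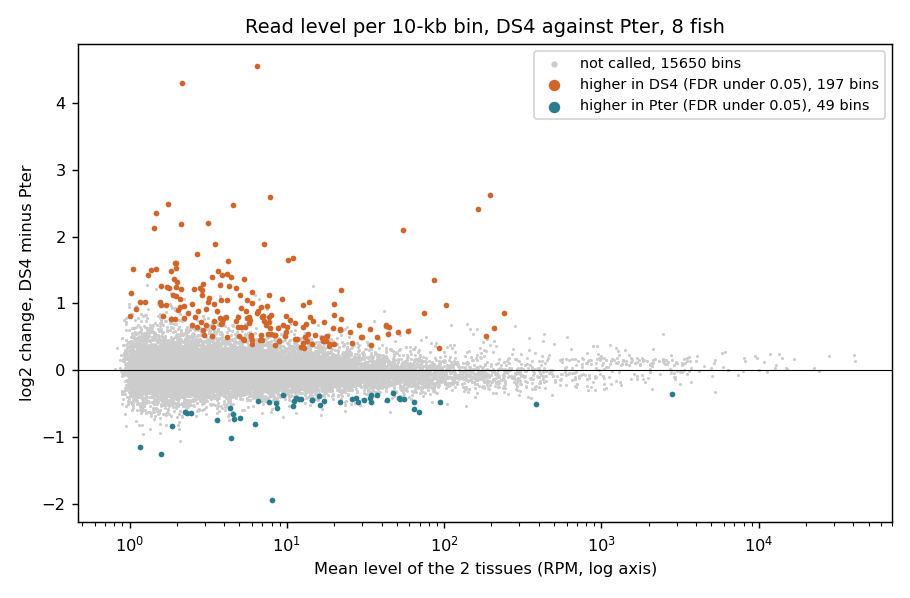
Each point is a 10-kb bin, with the mean level of both tissues on the x axis (RPM, log axis) and the log2 change of DS4 minus Pter on the y axis. The 197 bins higher in DS4 reach a log2 change of 4.56, and the 49 bins higher in Pter reach -1.95.

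Called bins that adjoin each other were counted as 1 locus. The 246 bins formed 218 loci, of which 170 were higher in DS4 and 48 in Pter, and 22 loci held more than 1 bin. The longest were a pair of loci of 4 bins on chromosome 10, at chr10:580001-620000 and chr10:12830001-12870000, both higher in DS4. A locus of 3 bins higher in DS4 lay at chr06:15930001-15960000, on the chromosome that carries HOXDB, with log2 changes of 0.80 to 1.12. Another of 3 bins higher in DS4 lay at chr11:1440001-1470000, with log2 changes of 0.70 to 0.95. A link of either locus to HOXDB was not tested. Called bins were spread over all 21 chromosomes and the unplaced sequence. Chromosome 10 had the highest share of called bins, with 19 of 573 (3.32%), all higher in DS4. Chromosome 4 had the lowest share of the 21, with 6 of 996 (0.602%).

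The named locus with the largest change toward DS4 was on chromosome 15. At chr15:8380001-8390000, DS4 of H/LHR replicates 1, 2 and 3 had 519, 330 and 323 RPM, and Pter of these fish had 57.3, 17.6 and 35.5. In H/L replicates 1 to 4, DS4 had 428, 533, 250 and 129 RPM and Pter had 53.3, 48.5, 89.3 and 110. L/LHR replicate 1 had 167 RPM in DS4 and 61.0 in Pter. Every DS4 value lay above every Pter value, and the narrowest gap within a fish was in H/L replicate 4. The log2 change was 2.62 ± 0.35 (SE; edgeR, adjusted p = 0.0035). The adjoining bin chr15:8370001-8380000 changed likewise, from a mean of 55.0 RPM in Pter to 274 RPM in DS4 (log2 change 2.41 ± 0.29, adjusted p = 0.0021). In the first bin 9 sites within 142 bases held 90% of the reads, and all 13 sites with at least 160 reads rose, with log2 changes of 2.46 to 2.63. Sites this close share reads in part, so their changes are not independent.

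Several other bins had the same shape. At chr10:14230001-14240000 the DS4 libraries had 9.19, 16.9 and 23.2 RPM as lowest, median and highest, and the Pter libraries 1.501, 5.57 and 7.83. The groups did not overlap, and the log2 change was 1.68 ± 0.22 (edgeR, adjusted p = 0.0035). At chrUn:13950001-13960000, on the unplaced sequence, the DS4 libraries had 5.60, 8.88 and 28.6 RPM and the Pter libraries 2.09, 2.48 and 5.81. Here the groups overlapped through Pter of H/L replicate 4, and the highest DS4 value was that of the shallow library of H/L replicate 3 (log2 change 1.90 ± 0.27, adjusted p = 0.0050). The bin chr10:580001-590000 was among the most abundant, with 188, 298 and 478 RPM in DS4 and 112, 167 and 278 RPM in Pter. It rose by 0.86 ± 0.15 on the log2 scale (adjusted p = 0.015). The other 7 named bins rose by 0.73 to 1.07, and lie at chr09:12800001-12810000, chrUn:3720001-3730000, chr21:9610001-9620000, chr09:8020001-8030000, chr10:12860001-12870000, chr09:4350001-4360000 and chr18:13920001-13930000. In RPM, DS4 of H/L replicate 3 was below its Pter at chr18:13920001-13930000 (10.0 against 13.0). DS4 of H/L replicate 4 was below its Pter at chr09:12800001-12810000 (10.0 against 10.7) and chr09:4350001-4360000 (11.037 against 11.043). All other fish were above at these bins. Of all 197 bins higher in DS4, 18 had 8 DS4 values all above the 8 Pter values, against 0.113% of all bins tested in that direction. None of the 49 bins higher in Pter were separated in that way, against 0% of all bins. The call used these same values, so the counts are a description.

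The bin chr09:17370001-17380000 behaved differently among the fish. DS4 had 26.7 RPM in H/LHR replicate 3, 28.2 in H/L replicate 1, 24.7 in H/L replicate 2 and 15.7 in L/LHR replicate 1. In the other 4 fish it had 4.50, 2.10, 3.35 and 4.64 RPM. All 8 Pter libraries lay between 1.14 and 3.60 RPM. The level was higher in DS4 than in Pter in every fish, as the rule for naming required (log2 change 2.60 ± 0.45, edgeR adjusted p = 0.014). In H/L replicate 3 this rests on 9 reads in the shallow DS4 library and 32 in Pter. The DS4 values fell into a high and a low set that did not follow the genotype. Of its 7 sites with at least 160 reads, 6 rose, with a median log2 change of 4.89 over the 7, and 1 had a log2 change of -0.27.

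**Figure D2:**
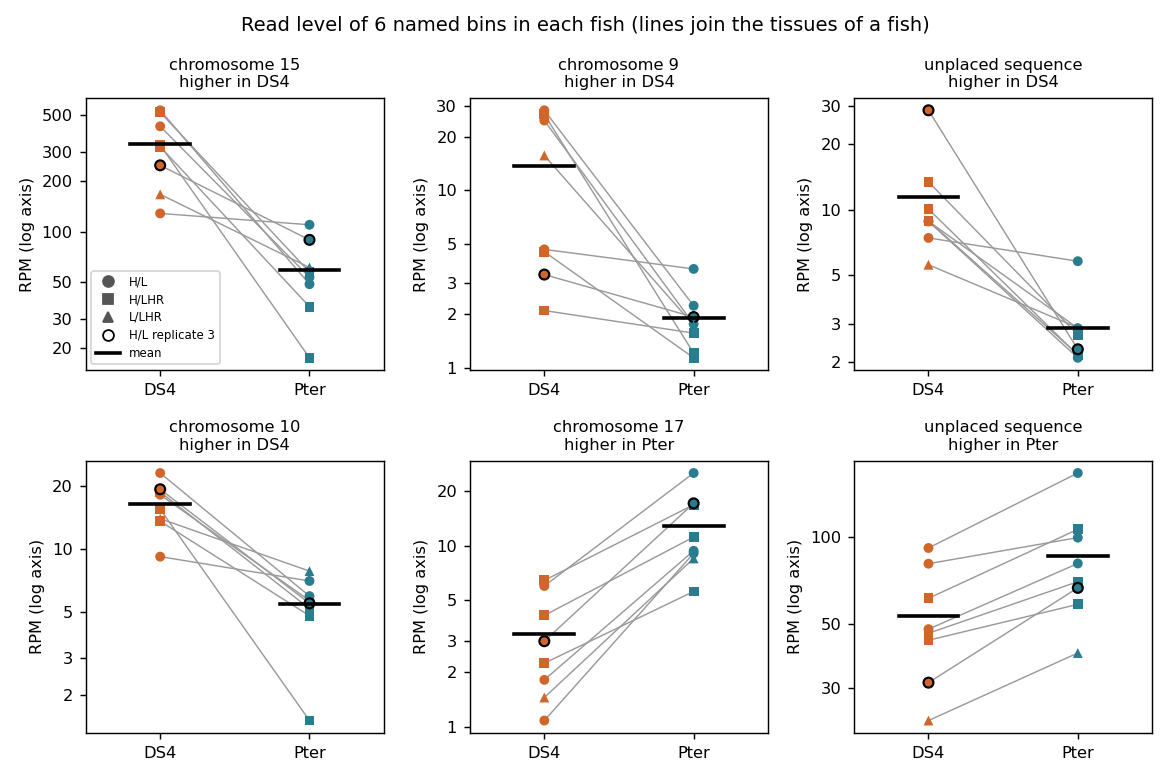
Levels in RPM (log axis) of 6 named bins in DS4 and Pter, with lines joining the tissues of a fish, symbols for the genotype and bars for the mean of 8 fish. Ringed points are H/L replicate 3, whose DS4 library had 2687799 reads. The chromosome 15 bin fell from a mean of 335 RPM in DS4 to 59.1 RPM in Pter, and the chromosome 17 bin rose from 3.27 to 12.9 RPM.

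The 2 bins with the largest changes of all fell outside the rule for naming, one for its low level and one because a fish went the other way, and were chosen after their values were seen. At chr08:8600001-8610000 DS4 had 2.60, 3.99 and 5.48 RPM as lowest, median and highest, and Pter had 0, 0.14 and 1.03. The log2 change was 4.31 ± 0.43 (edgeR, adjusted p = 0.0012). At chrUn:12560001-12570000 DS4 had 1.43, 9.44 and 31.7 RPM and Pter 0, 0.30 and 2.55 (log2 change 4.56 ± 0.72, adjusted p = 0.0097). The highest Pter value and the lowest DS4 value of this bin both came from H/L replicate 4, the fish that went the other way. Both bins were covered in every other spine. The means over the 8 fish in DS1, DS2, DS3 and DSL were 17.1, 16.7, 12.2 and 14.2 RPM in the first bin, and 34.8, 36.8, 25.1 and 38.7 RPM in the second. DSL is the last dorsal spine, which stands behind Pter. The bins differed in the fins. The dorsal fin (DF) and anal fin (AF) had 4.09 and 6.78 RPM in the first, and 0.67 and 0.47 RPM in the second, close to Pter.

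Pter of H/L replicate 4 stood apart from the other Pter libraries. Among the 197 bins higher in DS4 it had the highest of the 8 Pter levels in 129 (65.5%), and among all bins tested in 28.4%. It was 110 RPM at the chromosome 15 bin, where the other Pter libraries had 17.6 to 89.3. The part of this library in the results was not tested beyond leaving the fish out, which raised the count of bins higher in DS4 from 197 to 315. Of the 360 bins called without this fish in either direction, 213 were among the 246 called from all 8 fish. DS4 of H/L replicate 3, the shallow library, had the lowest DS4 level in 61.0% of all bins tested. RPM is scaled to depth, and the TMM factor of this library was 0.659. The cause of its low levels was not tested. Without that fish 245 of the 246 bins were called again.

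Among the named bins, those higher in Pter had log2 changes closer to 0 than those higher in DS4, apart from chr17:3430001-3440000. The other 3 of the 4 bins beyond a log2 change of -1 toward Pter had a mean under 10 RPM in both tissues and are not named. Pter of H/LHR replicates 1, 2 and 3 had 5.60, 11.2 and 16.9 RPM there, and DS4 had 2.25, 4.13 and 6.45. In H/L replicates 1 to 4, Pter had 9.10, 9.40, 17.2 and 25.3 RPM and DS4 had 1.09, 1.82, 2.98 and 6.01. L/LHR replicate 1 had 8.53 RPM in Pter and 1.45 in DS4. The log2 change ran from -3.21 to -1.35 over the fish after TMM scaling. In RPM the groups overlapped only through Pter of H/LHR replicate 1. The fitted log2 change was -1.95 ± 0.18 (edgeR, adjusted p = 0.0009), and all 13 sites with at least 160 reads fell in DS4, by -1.63 to -2.57.

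The next named bin by size was chrUn:19190001-19200000, with 39.6, 75.4 and 166 RPM in Pter as lowest, median and highest, and 23.1, 47.1 and 91.5 RPM in DS4. The groups overlapped widely, but every fish was lower in DS4, as the rule for naming required. The log2 changes per fish were -0.45 to -0.76 after TMM scaling (fitted log2 change -0.63 ± 0.07, edgeR adjusted p = 0.0013). They spread more in RPM, with 80.7 in DS4 and 99.4 in Pter of H/L replicate 1, and 31.3 and 66.6 in H/L replicate 3. At chr21:710001-720000 the Pter libraries had 44.9, 74.3 and 137 RPM and the DS4 libraries 27.5, 51.2 and 71.3, a log2 change of -0.59 ± 0.09 (adjusted p = 0.0096). The other 9 named bins had log2 changes of -0.46 to -0.57. They lie at chr20:5750001-5760000, chr02:13890001-13900000, chr01:15440001-15450000, chr12:18170001-18180000, chr08:16330001-16340000, chr08:760001-770000, chr11:1630001-1640000, chr06:13820001-13830000 and chr07:18600001-18610000. In RPM, DS4 of H/L replicate 1 lay above its Pter at several of these 9 bins. At chr08:760001-770000 it had 102 RPM against 93.5, while every other fish was lower in DS4. Most of these calls were near the threshold. Of the 12 named bins higher in Pter 1 was called without the block, against 11 of the 12 named bins higher in DS4. With library totals only, 3 of the 12 higher in Pter and 10 of the 12 higher in DS4 were called.

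Levels in the other tissues of the same 8 fish show where DS4 and Pter stand along the body. The tissues run from DS1 in front to DSL behind Pter, followed by DF and AF. The depths of the libraries of the other tissues are not given here. DSL of H/L replicates 3 and 4 was shallow. At chr06:16020516, 9 and 16 reads gave 1.88 and 2.15 RPM in DSL of these fish, while 44 reads gave 1.17 RPM in DSL of H/L replicate 2. Of the 197 bins higher in DS4, Pter had the lowest mean of all 8 tissues in 187 (94.9%), against 27.7% of all bins tested, and DSL had the highest in 117 (59.4%), against 10.5%. The call itself placed Pter below DS4, so these shares are a description. In 11 of the 12 named bins DS1, DS2, DS3 and DSL were all above DS4, and Pter formed a trough between DS4 and DSL. The share of all bins with this shape was not counted. DS4 had the lowest mean of all 8 tissues in 45.4% of all bins tested, so low DS4 means were common. The DS4 means include the shallow library of H/L replicate 3. At chr15:8380001-8390000 the means were 820, 789, 554 and 335 RPM from DS1 to DS4, 59.1 in Pter, 1137 in DSL, 343 in DF and 400 in AF. The exception was chr09:17370001-17380000. Its means were 16.8, 22.6, 13.7 and 13.7 RPM in DS1 to DS4, 1.90 in Pter, 2.38 in DSL, 5.05 in DF and 4.32 in AF. DSL was thus near Pter. The high means of the spines in front of Pter were not shared by all fish. The medians were 3.09, 18.5, 6.69 and 10.2 RPM in DS1 to DS4, and 1.75 in Pter, 1.57 in DSL, 4.51 in DF and 4.75 in AF.

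Of the 49 bins higher in Pter, DF had the highest mean in 40 (81.6%) and AF in the other 9, against 56.2% and 17.2% of all bins tested. DS4 had the lowest mean in 24 (49.0%), against 45.4% of all bins, so this share was near the background. The chromosome 17 bin rose along the series without a trough. Its means were 0.63, 0.94, 1.61 and 3.27 RPM in DS1 to DS4, 12.9 in Pter, 16.1 in DSL, 126 in DF and 140 in AF. At chrUn:19190001-19200000 the spines from DS1 to DS4 had 47.3 to 53.2 RPM, Pter 85.9, DSL 64.7, DF 141 and AF 95.8. Pter lay above DSL here, and likewise at chr21:710001-720000, with 79.2 and 67.2 RPM.

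**Figure D3:**
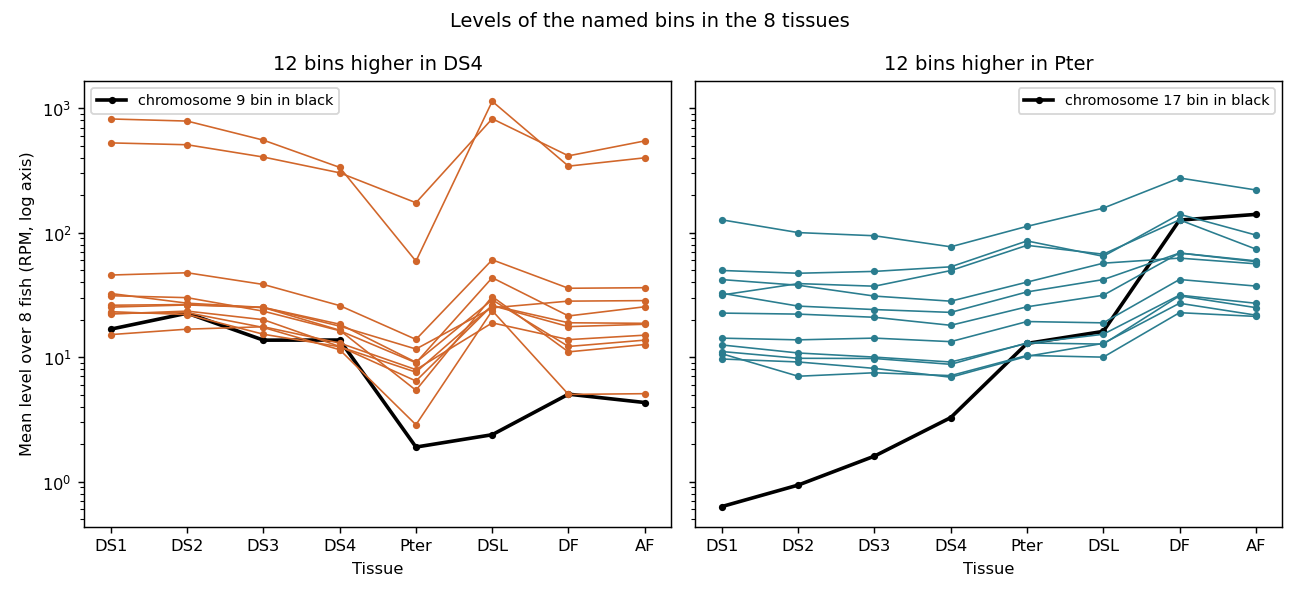
Mean level over 8 fish (RPM, log axis) of the named bins in the 8 tissues, ordered from the front spine to the fins. In the left panel 11 of the 12 bins higher in DS4 dip at Pter and rise again in DSL, while the chromosome 9 bin in black stays at 2.38 RPM in DSL. In the right panel the chromosome 17 bin in black rises from 0.63 RPM in DS1 to 140 RPM in AF.

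L/LHR replicates 2, 3 and 4 had no DS4 library and took no part in the comparison above. The study states that DS4 formed in only part of the progeny. These fish may thus differ from the 8 fish in spine number, and most of the 8 had another genotype. Whether their blank bone sits at the same position was not tested. The DS3, DSL and Pter libraries of these fish give a separate readout of spine against blank bone, as the mean of DS3 and DSL minus Pter within fish. The depths of these libraries are not given here. Levels in DS3 of L/LHR replicate 2 moved in steps of 0.20 RPM, so that library was shallow. Over the same 15896 bins, 487 were higher in the spines (3.06%) and 803 were higher in Pter (5.05%) in edgeR's quasi-likelihood test. With DS3 as the only spine the counts were 4 and 1, and with DSL as the only spine 714 and 947. Of the 197 bins higher in DS4, 193 were above 0 in these fish. Of the 197, 114 were called higher in the spines, against 3.06% of all bins, and 1 was called higher in Pter. Their median log2 change was 0.98, while that over all bins was 0.018 and 51.9% of all bins were above 0. The bin called the other way was chr05:11240001-11250000, with a log2 change of 0.64 ± 0.10 for DS4 and -0.72 ± 0.16 for the spines of these fish. Of the 49 bins higher in Pter, 42 were below 0 in these fish, with a median log2 change of -0.21. Of the 49, 4 were called higher in Pter, not far from the 5.05% of all bins, and none was called higher in the spines. The 4 bins were chr17:3430001-3440000 (-0.99 ± 0.15, edgeR adjusted p = 0.0078), chr18:6040001-6050000, chr11:1900001-1910000 and chr06:8270001-8280000. At the chromosome 17 bin DS3 of these fish had 0.80 to 2.93 RPM, Pter 14.4 to 16.8 and DSL 22.3 to 35.1. Its negative value thus came from DS3, while DSL lay above Pter. Among named bins, 8 of the 12 higher in DS4 and 1 of the 12 higher in Pter were called the same way. At chr09:17370001-17380000 the change was 0.47 ± 0.39 (adjusted p = 0.48), with DS3 at 0.20 to 13.2 RPM and DSL at 0.90 to 3.57. The lowest DS3 value was that of the shallow library of L/LHR replicate 2. At the bins chosen for their size the readout was as large, with 5.48 ± 0.36 at chr08:8600001-8610000 and 5.14 ± 0.37 at chrUn:12560001-12570000. The counts of called bins rested on few fish. They were 589 higher in the spines and 1281 higher in Pter without L/LHR replicate 2, 47 and 86 without L/LHR replicate 3, and 41 and 10 without L/LHR replicate 4. Without the block they were 38 and 6.

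**Figure D4:**
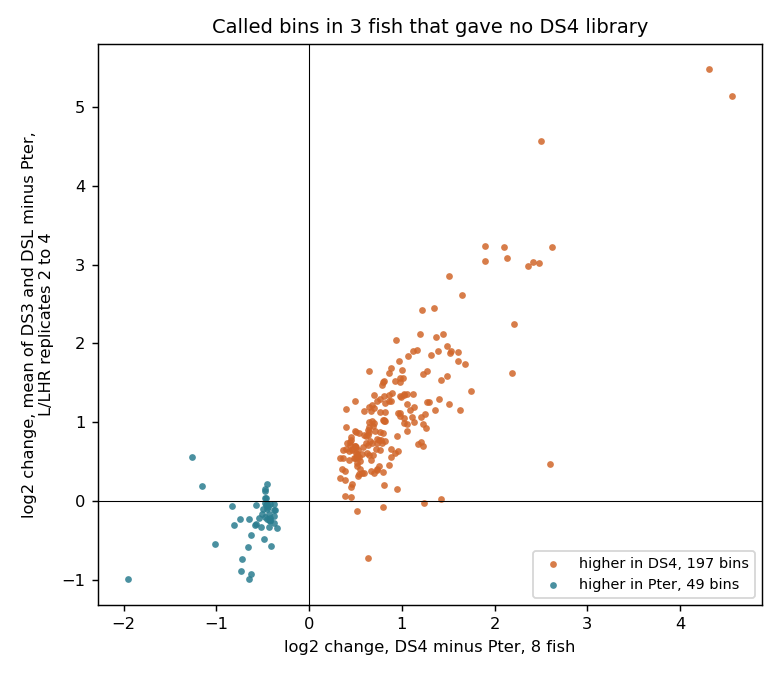
Log2 change of DS4 minus Pter in 8 fish (x axis) and of the mean of DS3 and DSL minus Pter in L/LHR replicates 2 to 4 (y axis) for the 246 called bins. Of the bins higher in DS4, 193 of 197 lie above 0 on the y axis, and of those higher in Pter 42 of 49 lie below 0.

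The change from Pter to DS4 was then compared between genotypes. No bin differed between 4 H/L and 3 H/LHR fish at an FDR of 0.05 (0%), in edgeR's test of the genotype by tissue term or in DESeq2, and 306 of 15896 bins had an unadjusted p under 0.05. Of the 246 called bins 21 were among these. All 197 bins higher in DS4 had a mean change above 0 in both genotypes, and all 49 higher in Pter a mean below 0 in both, which the choice of the bins favours. The named bin with the smallest p was chr17:3430001-3440000, with mean changes of -2.28 in H/L and -1.43 in H/LHR fish (unadjusted p = 0.013; edgeR, adjusted p = 1.0).

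HOXDB was compared at the bin chr06:16020001-16030000, which holds variants that the study places in the 3′ UTRs of HOXD11B (16020516) and HOXD9B (16027923 and 16028519). DS4 had 19.5, 21.4 and 26.0 RPM as lowest, median and highest, and Pter had 15.2, 17.6 and 35.4. DS4 was higher in 6 of 8 fish, and lower in H/L replicate 4 (20.7 against 35.4 RPM) and L/LHR replicate 1 (21.6 against 24.7). The mean difference was 1.72 ± 7.75 RPM (SD, n = 8; exact sign-flip permutation test, two-sided, p = 0.57; adjusted p = 0.92 over 4 tests). Without H/L replicate 4 it was 4.06 RPM (adjusted p = 0.13, exact permutation). The test could have reached a p of 0.0078 at the least. At the HOXD11B variant DS4 had 0.82 ± 0.20 RPM and Pter 0.60 ± 0.32 (exact permutation, adjusted p = 0.53). At the HOXD9B variants the means were 0.89 and 0.91 RPM at 16027923 and 1.43 and 1.41 RPM at 16028519, with adjusted p = 0.92 for both (exact permutation). These variants had 2 to 86 reads per library, which limits what could be seen. Along the body the bin rose from 0.11 RPM in DS1 and 0.99 in DS2 to 11.2 in DS3, then had 22.2 in DS4, 20.5 in Pter, 43.5 in DSL, 12.2 in DF and 13.5 in AF. DS4 and Pter were thus close in HOXDB level, with DS3 below both and DSL above both.

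The allele ratio changed between DS4 and Pter in H/L fish, in a test on reads summed over fish. The level was tested within fish of all genotypes, and not in H/L fish alone. The level and allele results therefore cannot be set against each other. At the HOXD11B variant, H gave 9 of 78 reads in DS4 summed over 4 fish, a share of 11.5% (exact 95% binomial interval 5.41% to 20.8%), and 31 of 96 reads in Pter, 32.3% (23.1% to 42.6%). On the log2 scale the allele ratio changed by -1.87 from Pter to DS4 (Fisher's exact test, two-sided, adjusted p = 0.0046 over 4 tests). The H share was lower in DS4 in each of the 4 fish. It was 0 of 25 reads in DS4 and 4 of 16 in Pter of H/L replicate 1, 6 of 29 and 10 of 33 in replicate 2, 0 of 3 and 2 of 5 in replicate 3, and 3 of 21 and 15 of 42 in replicate 4. At the HOXD9B variant 16028519, H gave 33 of 118 reads in DS4, 27.97% (20.1% to 37.0%), and 91 of 201 in Pter, 45.3% (38.3% to 52.4%), a log2 change of -1.09 (Fisher's exact test, adjusted p = 0.0057). Here 3 of the 4 fish were lower in DS4, and H/L replicate 2 had 32.3% in DS4 and 32.1% in Pter. With fish as strata (exact Mantel-Haenszel test, a replicate block) the adjusted p-values were 0.019 and 0.046. Both calls were lost without H/L replicate 1, with log2 changes of -1.32 and -0.50 (adjusted p = 0.18 and 0.41, Fisher's exact test). Reads of PCR-amplified libraries are not independent molecules, so intervals and Fisher's test cover counting error only.

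In H/LHR fish the H share at the HOXD11B variant was 15 of 69 reads in DS4, 21.7% (12.7% to 33.3%), and 15 of 42 in Pter, 35.7% (21.6% to 52.0%). All 3 fish were lower in DS4, and the log2 change of -1.0 did not pass the test (Fisher's exact test, adjusted p = 0.17). At the HOXD9B variant 16027923, H gave 42.2% of 90 reads in DS4 and 43.9% of 66 reads in Pter, with adjusted p = 0.87 (Fisher's exact test). Whether the change differed between H/L and H/LHR fish was not tested. In L/LHR replicate 1, L gave 11 of 21 reads in DS4 and 19 of 36 in Pter at 16027923, and 22 of 47 and 30 of 58 at 16028519.

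A scan of allele ratios over the genome tested 10087 sites with at least 4 informative fish, that is, heterozygous fish with at least 10 reads in both tissues. Of these, 87 sites in 10 loci differed between DS4 and Pter (0.862%; edgeR's quasi-likelihood test with allele by fish terms, FDR 0.05), and 51 of them moved the same way in every informative fish. The count depended on the fish. It was 39 without H/LHR replicate 2, 13 without H/LHR replicate 3, 53 without H/L replicate 1, 25 without H/L replicate 2, 36 without H/L replicate 4 and 34 without L/LHR replicate 1, and 0 sites were called without the allele by fish block. By the rule for naming, 8 sites in 8 loci are described, and 1 of the 87 called sites lay in a bin called for its level.

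The HOXDB site was chr06:16021251, 735 bases from the HOXD11B variant. Its alternate allele gave 0 of 724 reads in the 4 L/LHR fish and 34.7% and 35.4% of reads in H/L and H/LHR fish, so it marks H. In the 6 informative fish the H share was 8.33%, 27.3% and 33.3% in DS4 as lowest, median and highest, and 31.3%, 47.4% and 61.1% in Pter. It was lower in DS4 in all 6 fish, of both genotypes, as the rule for naming required. The groups overlapped only between 31.3% and 33.3%. The counts of H reads in DS4 and Pter were 2 of 24 and 5 of 16 in H/LHR replicate 1, 8 of 30 and 11 of 18 in replicate 2, and 7 of 28 and 11 of 23 in replicate 3. They were 7 of 25 and 9 of 18 in H/L replicate 1, 7 of 21 and 19 of 46 in replicate 2, and 10 of 35 and 31 of 66 in replicate 4. The fitted log2 change of the allele ratio was -1.40 ± 0.35 (edgeR, adjusted p = 0.036), and the call was lost whenever any 1 of the 8 fish was left out. Over all 15 alternatives with a value for this site, these included, the call was kept in 3 and lost in 12. Summed over these fish, the H share was 4.94% in DS3, 25.2% in DS4, 46.0% in Pter, 45.6% in DSL, 30.7% in DF and 26.3% in AF. DS4 thus lay between DS3 and Pter, and Pter and DSL were alike in their shares.

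The 12 tested sites of this bin lie in 2 groups by position. All 5 sites from 16020516 to 16021251, the HOXD11B variant included, had a lower alternate share in DS4 in every informative fish, with log2 changes of -1.13 to -1.65. Each had an unadjusted p under 0.05 and 1 passed the FDR. At all 5 the alternate allele was nearly absent from L/LHR fish, with at most 2 reads. These sites lie on the same haplotype and share reads in part, so they are not independent. The 7 sites from 16027828 to 16029269, on the side of HOXD9B, cannot be set beside these by the direction of the alternate allele. It does not mark the same haplotype at all of them. At 16027828, 16027892 and 16027923 it was absent from H/L fish, so it marks LHR in H/LHR and L/LHR fish. At 16028519, 16028646 and 16028921 it gave 99.7%, 100% and 99.2% of reads in H/LHR fish, so both H and LHR carry it. There it marks H in H/L fish and LHR in L/LHR fish, and a fit over both genotypes mixes these. At 16029269 alone it gave 0 of 860 reads in L/LHR fish and so marks H. There it was lower in DS4 in all 6 informative fish, with a log2 change of -0.44 ± 0.31 that did not pass the test (edgeR, adjusted p = 0.97). None of the 7 sites passed the FDR, and 1, 16028646, had an unadjusted p under 0.05 (edgeR, adjusted p = 0.079). At 16028646 the alternate share was lower in DS4 in all 4 informative fish, with 22.3% in DS4 and 44.9% in Pter.

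**Figure D5:**
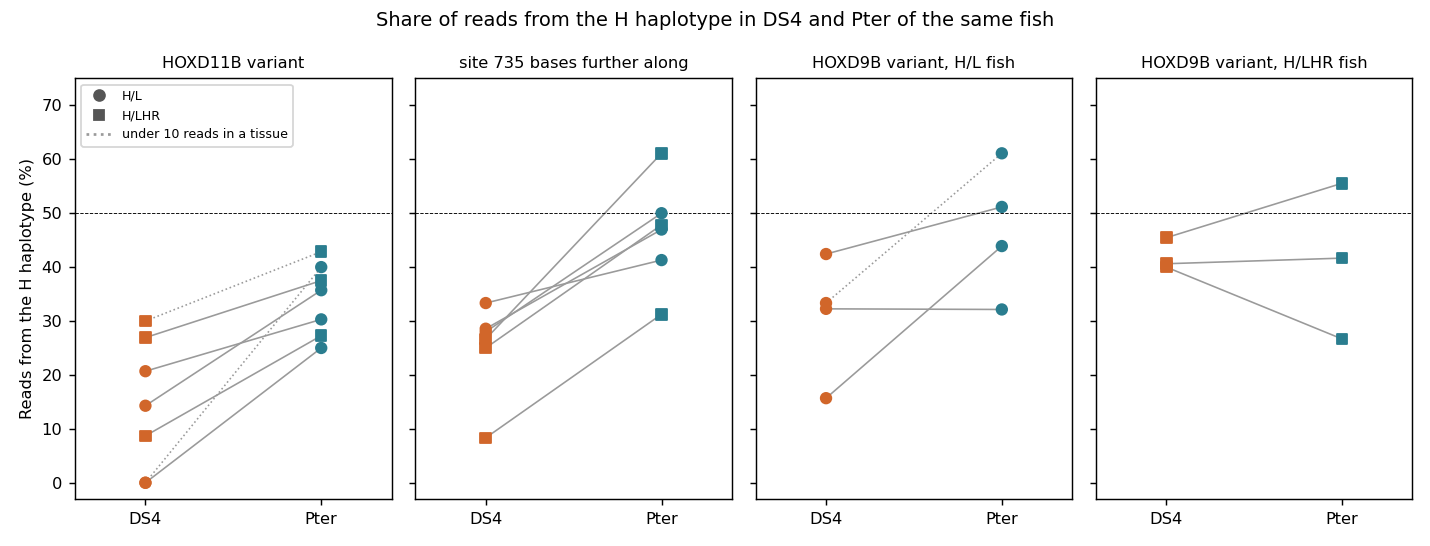
Share of reads from the H haplotype (y axis, percent) in DS4 and Pter of each fish, with lines joining the tissues of a fish and dotted lines where a tissue had under 10 reads. The share was lower in DS4 in every fish at the HOXD11B variant and in all 6 informative fish at the site 735 bases further along, and changed in both directions at the HOXD9B variant in H/LHR fish.

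Apart from chr17:6453087, which also was not heterozygous in every fish, the other named sites were unlike the HOXDB site in their genotypes. At chrUn:20561239 the alternate share was 62.4% in DS4 and 26.8% in Pter over 7 fish (log2 change 2.20 ± 0.39; edgeR, adjusted p = 0.0019). At chr11:7293483, in a locus of 42 called sites, it was 58.2% and 41.0%, and at chr21:980589 it was 24.8% and 39.7%. At chrUn:4900887 it was 31.9% and 47.3%, and at chr01:22473137 21.8% and 13.2%. At chr18:6049733 it was 69.2% in DS4 and 36.5% in Pter over 5 fish, and at chr17:6453087 59.3% and 42.1%. All these sites moved the same way in each of their 5 to 7 informative fish, as the rule for naming required. Along the body, the alternate share at chrUn:20561239 was 60.5% to 67.5% in the 5 spines, DSL included, and 36.2% in DF and 40.9% in AF, so Pter was below all other tissues. At chr21:980589 and chrUn:4900887 Pter was above all other tissues, which had 17.5% to 31.0% and 24.3% to 42.3%. At chr11:7293483 the share was 88.4% in DS1, 77.0% in DS2 and 61.3% in DS3, and lay between 43.8% and 52.7% in DSL, DF and AF. All but chr17:6453087 were heterozygous in all 11 fish of the series, including sites with a share far from 50%, as at chr01:22473137, where it was 14.7% to 29.6% in the 11 fish. Over the scan, 73 of the 87 called sites (83.9%) were heterozygous in all 11 fish, against 2683 of the 10087 sites tested (26.6%). Whether reads of both alleles at such sites come from the same place in the genome was not tested. The part of such sites in the calls was not tested beyond leaving them out. Without them 30 of 7404 sites were called, of which 14 were among the 87, and the HOXDB site was called again.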

How the data were processed

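Reads of the reference and alternate allele at single-nucleotide sites were deposited by the authors as raw counts, 1 table per library, with no normalization. Per the submitters' processing notes and the study's methods, reads were trimmed with Trim Galore (cutadapt 2.4), aligned with STAR to the study's own Apeltes assembly, and handled with Picard 2.23.4, SAMtools 1.10 and GATK 4.1.4.1, whose ASEReadCounter counted the alleles. Duplicate removal was not given in the sources used here. A site with no row was taken as 0 reads. No column of another series was used.

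Reads of both alleles were summed over fixed 10-kb bins, and bins with over 1 CPM in at least 8 of 16 libraries were tested with edgeR 4.0.16 (R 4.3.3; TMM factors, quasi-likelihood F-test, fish as a block, Benjamini-Hochberg over all bins). The mean log2 ratio of the TMM factors of DS4 to Pter was -0.071, but the factors differed within fish in both directions. DS4 and Pter had 0.659 and 0.906 in H/L replicate 3, and 1.03 and 1.19 in H/L replicate 4. They had 1.05 and 0.927 in H/LHR replicate 1, and 1.16 and 1.05 in H/L replicate 1. Standard errors of log2 changes are the change divided by the square root of F. Pairing rests on the labels, in which DS4 and Pter of a replicate come from the same fish. Deviations from the tissue means correlated at 0.23 to 0.64 across bins within fish, and at 0.15 to 0.31 with the most similar other fish, which in H/L replicate 3 was the higher of the values (0.23 and 0.30).

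A fish was heterozygous at a site when the minor allele had at least 10% and at least 5 reads over its libraries. The allele scan fitted library terms, allele by fish terms and the allele by tissue coefficient to all reads of the 8 fish. Changes per fish have 0.5 added to each count. Sites within 10 kb formed a locus. HOXDB levels were compared by exact sign flips within fish and HOXDB alleles by Fisher's exact test on reads summed per tissue, a test the study also used, with scipy 1.17.1 in Python 3.11.15 (numpy 2.4.6, pandas 2.3.3, matplotlib 3.10.9).

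Named bins were the 12 loci per direction with the largest change among called bins that met 2 conditions. They moved the same way in all 8 fish after TMM scaling, and had a mean of at least 10 RPM in the higher tissue. In RPM, which uses library totals alone, a fish could go the other way. Named sites were at most 10 called sites with the smallest p, 1 per locus, that moved the same way in every informative fish. The members, lists and tests were chosen with earlier results of these data known. On simulated data for DS4 against Pter, the bin test recovered 91% of bins changed by a log2 of 1 and 100% of those changed by 2, with 12 false calls over 15896 bins. These counts were drawn independently per bin and library, from means and spreads fitted to the data. The false calls of the bin test therefore may not hold for the real libraries. The allele test recovered 26% and 77%, with 9 false calls over 10087 sites. For the allele test the simulated spread among libraries was a fixed setting, not taken from the data. Its false calls therefore do not describe the scan of the real sites. DESeq2 1.42.0, limma 3.58.1, other scalings, filters and bin widths, and leaving out each fish were tried as alternatives. Replicates are separate fish. Reads of 1 library are not independent molecules.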

Additional observations from a re-analysis of the deposited data

Results flagged for a closer look

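Among the changes per fish of the named bins and sites, the HOXDB values and the library depths, 40 groups were tested and 5 values stood apart from the other fish by Dixon's ratio, where chance gives about 1 in 20 groups. The DS4 library of H/L replicate 3 had 2.69 M reads, and the next had 22.7 M. The same fish had the largest log2 change at chrUn:13950001-13960000 (4.103, next 2.15) and the lowest at chr20:5750001-5760000 (-1.59, next -0.83). H/L replicate 4 had the lowest log2 change at chr08:16330001-16340000 (-1.19, next -0.63) and the lowest RPM difference at the HOXD9B variant 16028519 (-1.19, next -0.14).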

How the results depend on the processing

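Over all settings tried, 312 of 406 values of named bins kept their call, 94 lost it and 0 changed direction, and of 121 values of named sites 79 kept their call, 42 lost it and 0 changed direction. The counts of bins higher in DS4 and higher in Pter were 75 and 2 with no replicate block (fish as the pairing), 63 and 11 with library totals only, 419 and 247 with DESeq2, 87 and 22 with over 5 CPM, 296 and 120 with 1 site per bin, and 43 and 6 at an FDR of 0.01. With RLE factors, no filter, other bin widths, sites listed in all 16 libraries or homozygous sites they stayed within 1.5 times. With a fish left out they ran from 37 to 315 and from 4 to 133. In L/LHR replicates 2 to 4 the counts were 4 and 1 with DS3 alone and 38 and 6 with no replicate block, and 41 to 589 and 10 to 1281 with a fish left out. The count of bins that differ between genotypes was 0 throughout. The count of sites whose allele ratio differs was 0 with no replicate block, 9 at an FDR of 0.01, 17 with at least 6 informative fish, 44 with at least 20 reads, 45 with DESeq2, 30 without sites heterozygous in all 11 fish (added after seeing the data), and 13 to 84 with a fish left out. The HOXDB levels passed the test in no setting. The mean difference at 16027923 was 0.019 RPM, against -0.029, with TMM factors in the total. With a fish left out it ran from -0.077 to 0.084 there, from -0.079 to 0.19 at 16028519, from 0.14 to 0.32 at 16020516 and from 0.62 to 4.06 at the bin. With the pairing ignored (no replicate block) the differences were as before, with exact permutation adjusted p-values of 0.47 to 0.93. The log2 allele changes with a fish left out ran from -2.94 to -1.32 (HOXD11B) and -1.50 to -0.50 (HOXD9B) in H/L fish, and from -1.21 to -0.68 and -0.35 to 0.27 in H/LHR fish. The cause of these movements was not tested. The HOXDB variants had 2 to 86 reads per library.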
